A study of Macaca mulatta with 4 samples.

Results

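The genes described here encode the lysosomal proton pump, the amino acid sensing machinery that sits on the lysosome, and a set of lysosomal hydrolases and membrane proteins. The set held 47 genes listed by symbol for their known roles, 18 of the pump, 19 of amino acid sensing and 10 hydrolases and other lysosomal proteins. They were chosen with earlier results of these data known, so the shares of calls among them describe the set and do not test it. Of the 47 genes, 41 matched an Ensembl macaque identifier in a count table of 21314 genes, and 40 of those were among the 13227 genes that passed a filter on low counts. ATP6V0B, ATP6V0C, ATP6V0E1, LAMTOR5, FNIP1 and DEPDC5 matched none and were not analysed here. FNIP2 (ENSMMUG00000030046) matched, but was listed at 0 counts in all 4 libraries and was not tested.

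The libraries came from rhesus macaque (Macaca mulatta) morulae, embryos at the stage of a compacting cell cluster. There were 2 libraries labelled GG and 2 labelled AG. The series speaks of gynogenetic embryos, whose nuclear genome is of maternal origin only, and androgenetic ones, of paternal origin only; GG and AG are read in that sense, which the labels do not spell out. No allele, treatment or age separates the groups in the labels, both groups are uniparental, and no biparental morula was among these samples. How many embryos each library holds and whether replicates came from different parents is not clear from the labels, so each p-value reflects only how far these libraries spread, which may be technical.

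The lysosome digests macromolecules in an acid lumen. Its acidity comes from the V-ATPase, a rotary pump in which the soluble V1 sector hydrolyses ATP and the membrane V0 sector moves protons. On the outer face, the Ragulator complex holds a pair of Rag GTPases, one of RagA or RagB with one of RagC or RagD, which bring the kinase complex mTORC1 to the lysosome when amino acids are plentiful. The FLCN-FNIP complex activates RagC and RagD, GATOR1 switches RagA and RagB off, and the transcription factors TFEB, TFE3 and MITF turn on lysosomal genes.

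Levels are in CPM, a library's estimated counts scaled to a common total with TMM factors. Each fold change is the log2 level in GG minus that in AG. The threshold for a call was an adjusted p of 0.05 in edgeR's quasi-likelihood test with Benjamini-Hochberg adjustment over all 13227 tested genes. CPM does not account for gene length, so levels are compared between libraries and not between genes. Total estimated counts were 21335918 and 29733977 in GG replicates 1 and 2, and 14129608 and 19108735 in AG replicates 1 and 2, so that 1 count was worth 0.0341 to 0.0712 CPM. In these bulk libraries, fewer cells of a type and less RNA per cell cannot be told apart.

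Of the 40 tested members, 9 were called higher in GG and 1 was called higher in AG, while 30 were not called. The 9 were ATP6V1B1, ATP6V1B2, ATP6V0A4, ATP6AP1, ATP6AP2, RRAGD, LAMTOR2, CTSB and NPC2, and the 1 higher in AG was ATP6V1E1. As a share of tested members, 22.5% were called higher in GG and 25% were called in either direction, where the background over all tested genes was 6.34% for calls higher in GG, 6.58% for the opposite direction and 12.9% for both directions together. The members collected more reads than the typical gene, with a median CPM at percentile 74.9 of all tested genes, without correction for gene length. A second background therefore used genes with a mean of at least 10 CPM. Among 7097 such genes, 7.95% passed with the higher level in GG and 8.83% with the higher level in AG, and among the 36 members at that level the shares were 25% and 2.78%. In 22 members both GG libraries lay above both AG libraries and in 6 both lay below, where the shares over all tested genes were 33.4% and 30.7%. The median fold change was 0.56 over the members, also with RRAGD at its bound, against 0.04 over all tested genes.

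Calls were found in all 3 subgroups, to be read beside the 6.34% of all tested genes called higher in GG and 12.9% called in either direction. Among proton pump genes, 5 of 15 (33.3%) were higher in GG, and ATP6V1E1 was higher in AG, with a median fold change of 0.74. In amino acid sensing, 2 of 15 passed with the higher level in GG and 0 with the higher level in AG, at a median of 0.33. That is 13.3% called, and without RRAGD 1 of 14 (7.14%), near the shares over all tested genes. An unadjusted edgeR p under 0.05 was found for 6 of these 15, and DESeq2 called 4 of them higher in GG and 2 higher in AG. Among hydrolases and other lysosomal proteins, 2 of 10 (20%) passed with the higher level in GG and 0 with the higher level in AG, at a median of 0.62. There, 4 of the 10 had an unadjusted edgeR p under 0.05, and DESeq2 called 3 higher in GG and 0 higher in AG. Counts from DESeq2, here and in the lists below, are to be read beside its own share. It called 23.2% of all genes to which it gave an adjusted p, in either direction. Small unadjusted p-values were common over all tested genes, and their share under 0.05 is not given here. MCOLN1, for example, had an unadjusted edgeR p of 0.0420 and an adjusted p of 0.140. Counts of unadjusted p under 0.05, here and in the lists below, therefore show no excess by themselves. Differences between the subgroups were not tested.

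**Figure D1:**
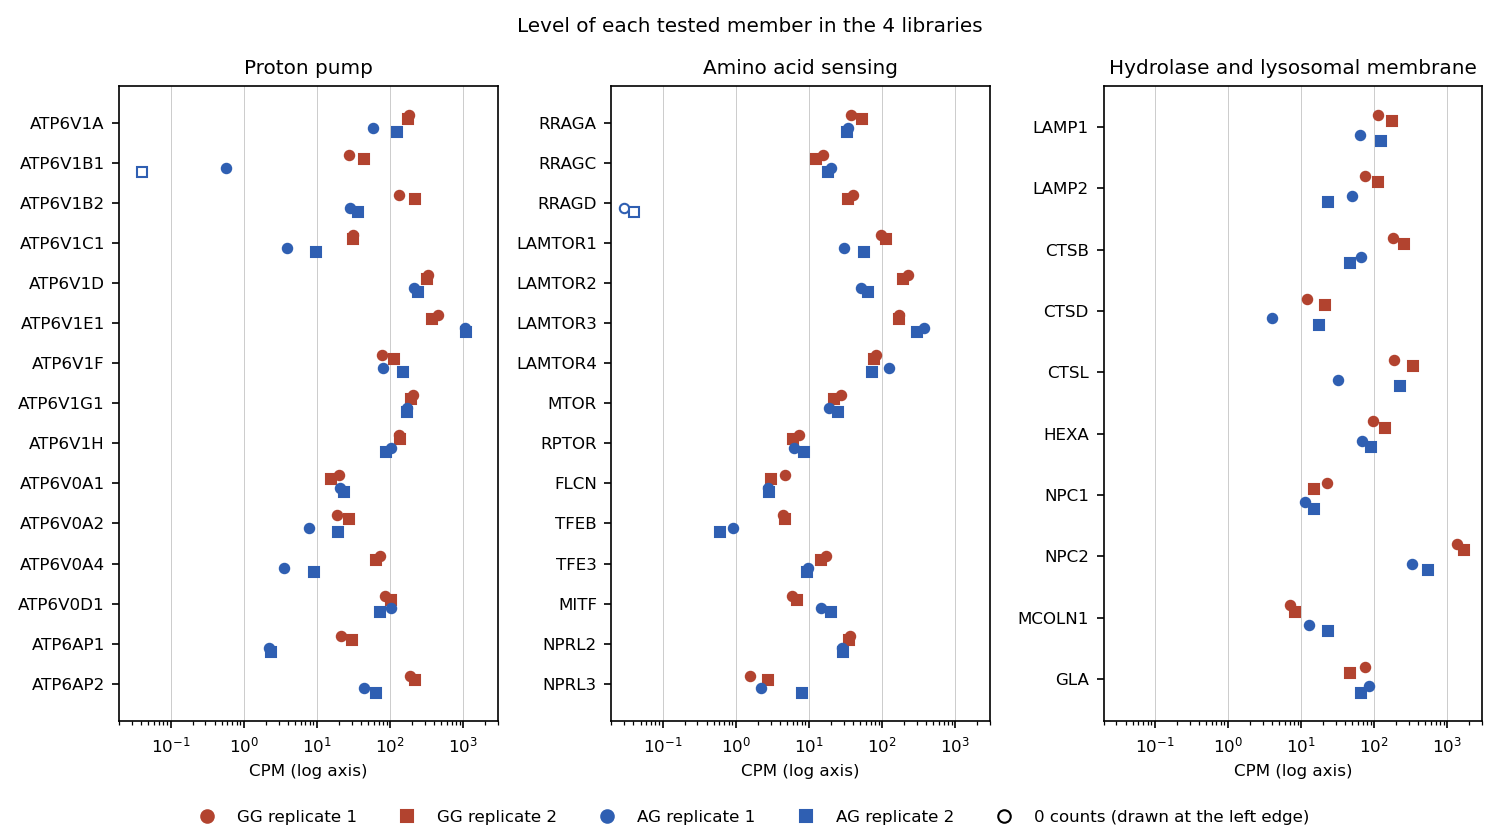
CPM of each of the 40 tested members on a log axis, with 1 point per library, GG in red above AG in blue, circles for replicate 1 and squares for replicate 2. Open symbols at the left edge stand for 0 counts, which occurred for RRAGD in both AG libraries and for ATP6V1B1 in AG replicate 2.

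In the V1 sector, both genes for the B subunit, which helps form the ATP-binding sites, were higher in GG. ATP6V1B2 (ENSMMUG00000020000), the broadly expressed form, had 131 and 223 CPM in GG replicates 1 and 2, against 28.8 and 36.2 CPM in AG replicates 1 and 2. The means of 177 ± 64.5 and 32.5 ± 5.22 CPM (SD, n = 2 each) gave a fold change of 2.45 ± 0.37 SE (adjusted p = 0.0211). ATP6V1B1 (ENSMMUG00000002090), known from acid-secreting cells of the kidney and inner ear, had 27.3 and 44.8 CPM in the GG libraries, against 0.570 and 0 CPM in the AG libraries. Those AG values rest on 8 counts and 0 counts, against 575 and 1313 counts in GG, and the fold change was 7.10 ± 1.19 SE (adjusted p = 0.0261). That size depends on the AG libraries: the fold change was 5.96 without AG replicate 2, and without AG replicate 1 the level was at least 237-fold higher in GG, computed against 3 counts in the remaining AG library. For both genes the GG libraries stood clear of the AG libraries, and all deposited values of both were whole numbers.

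ATP6V1E1 (ENSMMUG00000021477), a stalk subunit that joins the V1 head to the membrane sector, went in the opposite direction. It had 455 and 373 CPM in GG replicates 1 and 2, against 1073 and 1103 CPM in AG replicates 1 and 2. Its mean was 414 ± 57.4 CPM in GG and 1088 ± 21.5 CPM in AG (SD, n = 2 each), a fold change of -1.39 ± 0.22 SE (adjusted p = 0.0240). It was the only called member with lower levels in GG. All 4 of its deposited values were whole numbers.

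The catalytic subunit gene ATP6V1A had 182 and 177 CPM in GG, against 59.1 and 124 CPM in AG. Its groups did not overlap, but it was not called (fold change 0.97 ± 0.40 SE, adjusted p = 0.159); without AG replicate 2 it passed (adjusted p = 0.00851). ATP6V1C1, whose product takes part in the regulated joining of V1 to V0, had 30.9 and 31.0 CPM in GG, against 3.92 and 9.70 CPM in AG. It narrowly missed the threshold (fold change 2.18 ± 0.52 SE, adjusted p = 0.0509), and passed it in 8 of 12 alternative settings. The remaining V1 genes ATP6V1D, ATP6V1F, ATP6V1G1 and ATP6V1H were not called in any of those settings, with fold changes between -0.27 and 0.53. ATP6V1D, a subunit of the central shaft, had 333 and 320 CPM in GG, against 215 and 239 CPM in AG.

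In the V0 sector, 4 of 7 genes were tested and 1 was called. ATP6V0A4 (ENSMMUG00000006547), an isoform of the large a subunit known from acid-secreting epithelia, had 74.4 and 64.0 CPM in GG, against 3.56 and 9.04 CPM in AG. The means were 69.2 ± 7.31 and 6.30 ± 3.87 CPM (SD, n = 2 each), a fold change of 3.45 ± 0.53 SE (adjusted p = 0.0220). The other a isoforms were not called. ATP6V0A1 had 19.9 and 15.7 CPM in GG, against 20.6 and 23.5 CPM in AG (fold change -0.31 ± 0.35 SE). ATP6V0A2, an isoform known from Golgi and endosomes, had 19.1 and 27.3 CPM in GG, against 7.91 and 19.8 CPM in AG, with overlapping groups (fold change 0.74 ± 0.53 SE). Deposited values of all 3 isoforms included fractions of reads, so their counts are estimates. Whether reads were shared among these isoforms or with other genes is not shown. ATP6V0D1, which couples the sectors, had 85.6 and 104 CPM in GG, against 103 and 73.5 CPM in AG, and the groups overlapped.

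Both accessory genes of the pump were higher in GG. ATP6AP1 (ENSMMUG00000005501), known for its role in pump assembly, had 21.8 and 30.4 CPM in GG, against 2.21 and 2.39 CPM in AG (fold change 3.50 ± 0.44 SE, adjusted p = 0.0151). ATP6AP2 (ENSMMUG00000012762), also called the prorenin receptor, had 189 and 222 CPM in GG, against 44.3 and 65.4 CPM in AG (fold change 1.90 ± 0.31 SE, adjusted p = 0.0245). For neither gene did the groups overlap.

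**Figure D2:**
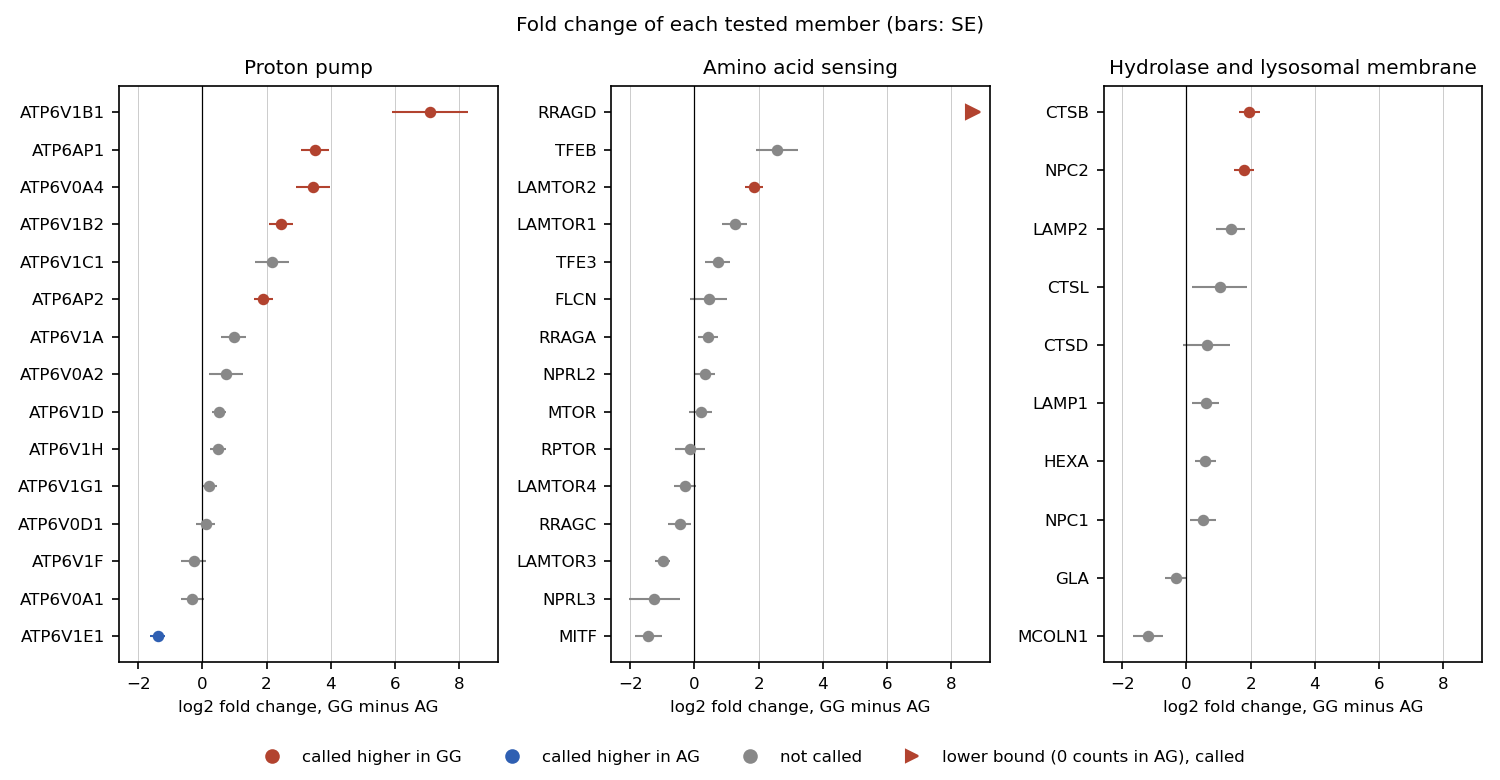
Log2 fold change of each tested member, GG minus AG, with bars of 1 SE, red for members called higher in GG, blue for higher in AG and grey for not called. The triangle marks RRAGD at its lower bound of 8.67; the called pump genes lie between -1.39 for ATP6V1E1 and 7.10 for ATP6V1B1.

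Summed over the 15 tested pump genes, the level was 1991 and 2075 CPM in GG replicates 1 and 2, against 1917 and 2118 CPM in AG replicates 1 and 2. These sums overlapped. Within them, ATP6V1E1 made up 22.8% and 18.0% of the pump total in the GG libraries, against 56.0% and 52.1% in the AG libraries. Leaving it out, the sum over the other 14 genes was 1536 and 1701 CPM in GG, against 844 and 1015 CPM in AG, with no overlap. The accessory genes together had 231 ± 29.5 CPM in GG and 57.2 ± 15.1 CPM in AG, and the V0 genes 205 ± 8.46 CPM in GG and 130 ± 6.17 CPM in AG (SD, n = 2 each). Within the V0 sums, ATP6V0A4 alone had means of 69.2 CPM in GG and 6.30 CPM in AG, and the other 3 tested V0 genes were not called. The V1 genes, ATP6V1E1 included, went the other way, at 1596 ± 21.5 CPM in GG and 1830 ± 134 CPM in AG (SD, n = 2 each). These shares are of reads, which longer genes collect in greater number, so they compare libraries and do not give the proportion of subunits.

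**Figure D3:**
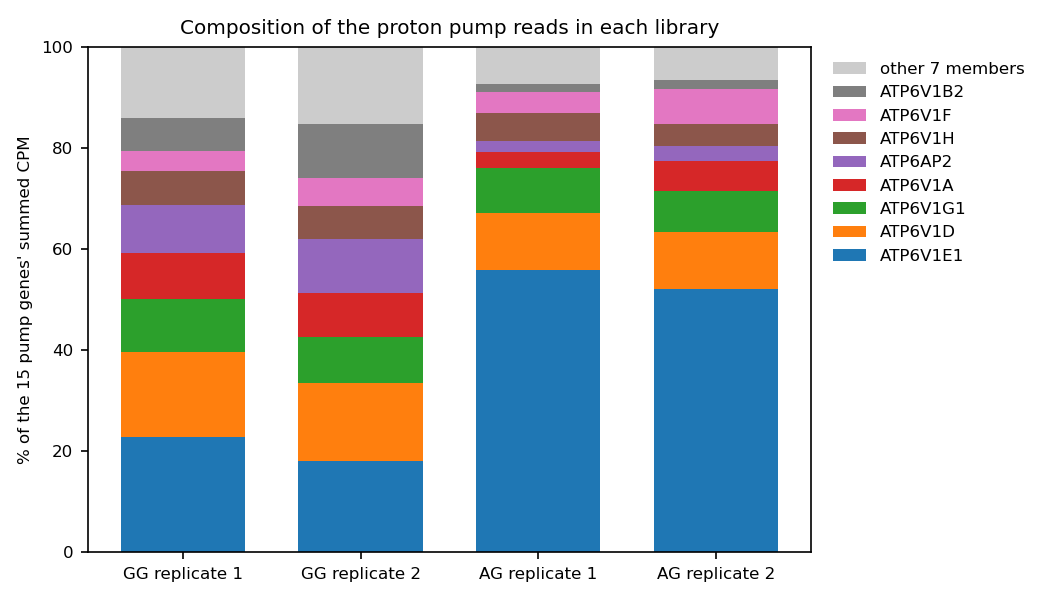
Share of the summed CPM of the 15 tested pump genes in each library, as stacked bars to 100%, with 8 genes shown singly and the other 7 together in light grey. ATP6V1E1, at the bottom, took 22.8% and 18.0% in the GG libraries, against 56.0% and 52.1% in the AG libraries.

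Among the Rag GTPases, RRAGD was the one called. RRAGD (ENSMMUG00000015262), which encodes RagD, had 834 and 994 counts in GG replicates 1 and 2, or 39.6 and 33.9 CPM, against 0 counts in both AG libraries. It was at least 408-fold higher in GG, computed against 3 counts over the AG group (adjusted p = 0.00666). Its paralog RRAGC (ENSMMUG00000023634), whose product fills the same place in the Rag pair, had 15.8 and 12.4 CPM in GG, against 20.3 and 18.6 CPM in AG, and was not called (fold change -0.46 ± 0.36 SE, adjusted p = 0.430). RRAGA, the partner, had 38.0 and 53.5 CPM in GG, against 34.8 and 33.4 CPM in AG, and was not called either (fold change 0.42 ± 0.33 SE). Of the counts of RRAGD and RRAGC together, RRAGD held 71.5% and 73.1% in the GG libraries, against 0% in both AG libraries. RRAGC had 285 and 366 counts in AG replicates 1 and 2, where RRAGD had none.

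Of the 4 tested Ragulator genes, 1 was called. LAMTOR2 (ENSMMUG00000012126), a subunit of the scaffold, had 229 and 196 CPM in GG, against 51.3 and 65.3 CPM in AG (fold change 1.87 ± 0.28 SE, adjusted p = 0.0208). LAMTOR1, the lipid-anchored subunit that fixes the complex to the lysosomal membrane, had 97.3 and 113 CPM in GG, against 30.7 and 57.3 CPM in AG, and was not called (fold change 1.26 ± 0.38 SE, adjusted p = 0.0853), but passed with DESeq2 (adjusted p = 0.0221) and without AG replicate 2 (0.0110). LAMTOR3, the partner of LAMTOR2 in the scaffold, had 170.5 and 172 CPM in GG, against 373 and 305 CPM in AG. Its groups did not overlap and it lay just outside the threshold (fold change -0.99 ± 0.24 SE, adjusted p = 0.0508), passing in 5 of 12 alternative settings. LAMTOR4 had 83.2 and 77.8 CPM in GG, against 124 and 72.3 CPM in AG, and was not called. Summed over the 4 tested genes, the Ragulator level was 569 ± 14.9 CPM in GG and 540 ± 56.4 CPM in AG (SD, n = 2 each), a difference smaller than the spread within AG.

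Of the 5 tested mTORC1, FLCN and GATOR1 genes, 0 were called by edgeR or by DESeq2, and 0 had an unadjusted edgeR p under 0.05. MTOR, the kinase, had 27.3 and 22.4 CPM in GG, against 18.8 and 24.7 CPM in AG, and RPTOR, the subunit that recognises the Rag GTPases, had 7.36 and 6.04 CPM in GG, against 6.20 and 8.53 CPM in AG. Both overlapped between groups. FLCN had 4.70 and 3.03 CPM in GG, against 2.78 and 2.90 CPM in AG (fold change 0.44 ± 0.57 SE). NPRL2 of GATOR1 had 36.0 and 35.7 CPM in GG, against 28.1 and 29.0 CPM in AG, and NPRL3 had 1.57 and 2.73 CPM in GG, against 2.21 and 8.02 CPM in AG. NPRL2 was separated between groups by a small margin (fold change 0.33 ± 0.30 SE), whereas NPRL3 overlapped.

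The 3 lysosomal transcription factors were not called. TFEB had 4.37 and 4.77 CPM in GG, against 0.926 and 0.609 CPM in AG (fold change 2.57 ± 0.64 SE, adjusted p = 0.0542), resting on 13 and 12 counts in the AG libraries. TFE3 had 17.4 and 14.7 CPM in GG, against 9.90 and 9.55 CPM in AG (fold change 0.72 ± 0.38 SE, adjusted p = 0.254). MITF had 5.89 and 6.89 CPM in GG, against 14.7 and 19.96 CPM in AG (fold change -1.44 ± 0.42 SE, adjusted p = 0.0755). In none of the 3 did the groups overlap, where 33.4% of all tested genes lay above AG in GG without overlap and 30.7% lay below. DESeq2 called TFEB higher in GG and MITF higher in AG, as did edgeR without AG replicate 1. The summed level of the 3 genes was 27.0 ± 0.907 CPM in GG and 27.8 ± 3.21 CPM in AG (SD, n = 2 each).

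Ratios of 1 paralog to another within a library do not depend on library size, except where a count is 0 or near it. In all, 6 such pairs were compared. The log2 ratio of ATP6V1B1 to ATP6V1B2, with 0.5 added to each count, was -2.27 and -2.31 in the GG libraries, against -5.57 and -10.48 in the AG libraries. The value of -10.48 rests on 0 counts of ATP6V1B1, so the added 0.5 and the depth of that library set it. For ATP6V0A4 over ATP6V0A1 it was 1.90 and 2.03 in GG, against -2.52 and -1.38 in AG, so that ATP6V0A4 held 78.9% and 80.3% of the pair's counts in GG, against 14.7% and 27.8% in AG. The difference between group means, GG minus AG, was 3.91 for that pair, 1.18 for ATP6V0A2 over ATP6V0A1, 1.84 for TFEB over TFE3 and -2.14 for MITF over TFE3. MITF held 25.3% and 31.9% of the counts of MITF and TFE3 in GG, against 59.8% and 67.6% in AG. In all 6 pairs the GG libraries lay on 1 side of the AG libraries. ATP6V0A1 and TFE3 each serve in more than 1 pair, and the share over other gene pairs is not given here. The exact 2-sided permutation test gave p = 0.33 for each, also after adjustment over the 6 pairs, which is the smallest value that 2 against 2 libraries allow, so this design cannot reach 0.05.

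**Figure D4:**
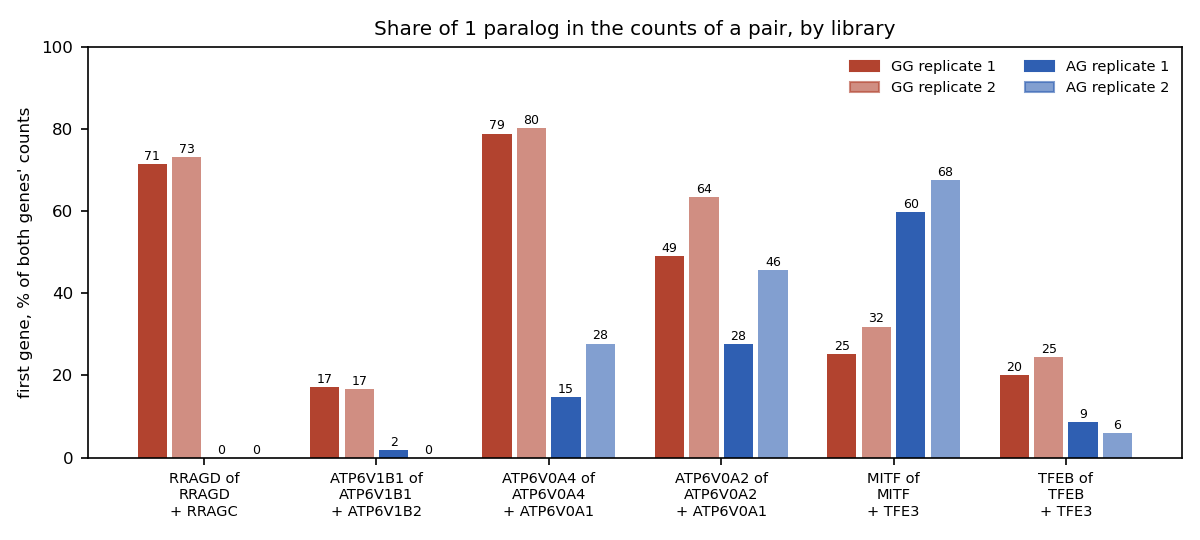
Share of 1 paralog in the summed counts of a pair, in percent, with 1 bar per library, GG replicates in red to the left of AG replicates in blue. RRAGD held 71.5% and 73.1% in GG, against 0% in both AG libraries; MITF is the 1 first-named gene with lower shares in GG.

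Of the hydrolases and other lysosomal proteins, CTSB and NPC2 were higher in GG. CTSB (ENSMMUG00000019212), the protease cathepsin B, had 184 and 256 CPM in GG, against 65.6 and 47.6 CPM in AG (fold change 1.96 ± 0.32 SE, adjusted p = 0.0245). NPC2 (ENSMMUG00000006563), a soluble protein that carries cholesterol out of the lysosomal lumen, had 1353 and 1693 CPM in GG, against 336 and 546 CPM in AG (fold change 1.79 ± 0.31 SE, adjusted p = 0.0277). NPC1, the membrane protein that takes cholesterol over from NPC2, had 22.9 and 15.1 CPM in GG, against 11.3 and 15.2 CPM in AG, and was not called. NPC2 alone made up 63.5% and 60.2% of the summed CPM of the 10 genes in the GG libraries, against 45.9% and 46.1% in the AG libraries. The other 9 genes summed to 779 and 1120 CPM in GG, against 395 and 637 CPM in AG, still without overlap.

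The other cathepsins were spread widely within AG. CTSL, the protease cathepsin L, had 190 and 337 CPM in GG, against 32.0 and 225 CPM in AG replicates 1 and 2. CTSD, cathepsin D, had 12.1 and 21.5 CPM in GG, against 4.06 and 17.6 CPM in AG replicates 1 and 2. In both genes AG replicate 2 lay within the GG range. They were not called, and passed only when AG replicate 2 was left out (adjusted p = 0.00734 for CTSL and 0.0469 for CTSD). Without AG replicate 1, CTSL had a fold change of 0.22 and CTSD one of -0.08.

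LAMP1 and LAMP2 encode the abundant glycoproteins of the lysosomal membrane. LAMP1 had 113 and 177 CPM in GG, against 64.5 and 127 CPM in AG, and overlapped between groups. LAMP2 had 76.0 and 115 CPM in GG, against 50.3 and 23.4 CPM in AG, and missed the threshold (fold change 1.38 ± 0.46 SE, adjusted p = 0.105), but passed with DESeq2 and without AG replicate 1 (lowest adjusted p = 0.0234). MCOLN1, a calcium channel of the lysosomal membrane, had 7.17 and 8.42 CPM in GG, against 12.8 and 23.2 CPM in AG (fold change -1.21 ± 0.46 SE, adjusted p = 0.140), and passed in 1 of 12 settings, without AG replicate 1 (0.0434). The glycosidase genes were not called in any setting. HEXA, a subunit of beta-hexosaminidase, had 98.4 and 143 CPM in GG, against 68.3 and 92.2 CPM in AG, and GLA, alpha-galactosidase A, had 74.6 and 46.7 CPM in GG, against 86.1 and 66.5 CPM in AG.

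By symbol, RefSeq's gene table (T2T-MMU8v2.0) puts 5 of the tested members on the X chromosome, a feature that played no part in choosing them. ATP6AP1 and ATP6AP2 were called higher in GG, LAMP2 and TFE3 lay above AG without a call, and GLA overlapped, giving a median fold change of 1.38. Over all 390 tested X-linked genes the median was 0.61 and 15.1% were called higher in GG, against 0.02 and 5.94% over 10142 autosomal genes. The 35 autosomal members had a median of 0.52, with 7 called higher in GG and 1 higher in AG. How far the X-linked location accounts for the values of these 5 genes was not tested.

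The rest of the pathway was read from 5 lists of 138 other genes, of which 105 were tested. Across them, 8 passed with the higher level in GG and 5 with the higher level in AG. That is 12.4% in all, close to the 12.9% over all tested genes. Called higher in GG were 7.62% of these 105 genes, against 22.5% of the tested members and 6.34% of all tested genes. Of 30 other hydrolases and their activators, 5 (16.7%) were higher in GG, where the share over all tested genes was 6.34%, and 0 passed in the opposite direction with edgeR or DESeq2. Their median fold change was 1.17, and 13 of the 30 had an unadjusted edgeR p under 0.05. Both GG libraries lay above both AG libraries in 17 of these 30 genes, where the share over all tested genes was 33.4%. Of 31 other membrane and trafficking genes, 3 were higher in GG and CTNS was higher in AG, with a median of 0.97. That is 12.9% called in either direction, the same share as over all tested genes.

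Among the hydrolases, CTSC, the protease cathepsin C, had 39.8 and 66.6 CPM in GG, against 1.07 and 0.965 CPM in AG (fold change 5.71 ± 0.48 SE, adjusted p = 0.00666). PPT1, which removes palmitate from proteins, had 574 and 645 CPM in GG, against 138 and 188 CPM in AG (fold change 1.90 ± 0.26 SE, adjusted p = 0.0181). CTSA, a protease that stabilises other lysosomal enzymes, had 101 and 136 CPM in GG, against 14.6 and 31.7 CPM in AG (fold change 2.35 ± 0.46 SE, adjusted p = 0.0340). The groups did not overlap in any of these 3 genes. GM2A, the activator protein that works with beta-hexosaminidase, had 93.0 and 168 CPM in GG, against 7.55 and 21.9 CPM in AG, again without overlap (fold change 3.15 ± 0.62 SE, adjusted p = 0.0343).

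In the membrane list, CD63, a tetraspanin of late endosomes, had 112 and 160 CPM in GG, against 23.1 and 20.1 CPM in AG (fold change 2.65 ± 0.33 SE, adjusted p = 0.0146). SORT1, a sorting receptor for lysosomal proteins, and SLC36A1, a proton-coupled amino acid transporter, had fold changes of 3.07 ± 0.64 SE and 4.20 ± 0.90 SE (adjusted p = 0.0386 and 0.0403). The exception was CTNS, the exporter of cystine from the lysosome, with 4 and 12 counts in GG, against 225 and 184 counts in AG. CTNS stood at 0.190 and 0.409 CPM in GG, against 16.0 and 9.35 CPM in AG (fold change -5.35 ± 0.71 SE, adjusted p = 0.0172).

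Of 20 other amino acid sensing genes, edgeR called SLC38A9 and SESN2 higher in AG and 0 higher in GG, with a median fold change of 0.24. DESeq2 called 2 of the 20 higher in GG, and 6 had an unadjusted edgeR p under 0.05. SLC38A9, the arginine-sensing transporter that binds the Rag-Ragulator complex, had 108 and 75.05 CPM in GG, against 245 and 245 CPM in AG (fold change -1.42 ± 0.28 SE, adjusted p = 0.0355). SESN2, a leucine-binding inhibitor of the pathway that stress also induces, had 9.02 and 12.9 CPM in GG, against 73.7 and 115 CPM in AG (adjusted p = 0.0162). RRAGB, the second gene for the RagA and RagB place, was not called, with a fold change of -0.57 ± 0.96 SE.

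The next list held substrates of mTORC1 and genes of autophagy, the pathway that feeds cytoplasm to the lysosome. Of 16 tested, ATG13 and WIPI2 were higher in AG and 0 passed in the opposite direction with edgeR or DESeq2. The share called by edgeR was 12.5%, close to the 12.9% over all tested genes. The median was -0.52, and 5 of the 16 had an unadjusted edgeR p under 0.05. ATG13, a subunit of the kinase complex that starts autophagy, had 27.1 and 21.3 CPM in GG, against 93.0 and 65.5 CPM in AG (fold change -1.71 ± 0.34 SE, adjusted p = 0.0353). WIPI2, which acts at the forming autophagosome, had 33.8 and 33.5 CPM in GG, against 122 and 79.3 CPM in AG (fold change -1.58 ± 0.33 SE, adjusted p = 0.0386). Of 8 other pump and assembly genes, edgeR called 0 in either direction, with a median of -0.16 and 4 at an unadjusted p under 0.05. DESeq2 called 2 of them higher in GG and 1 higher in AG.

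**Figure D5:**
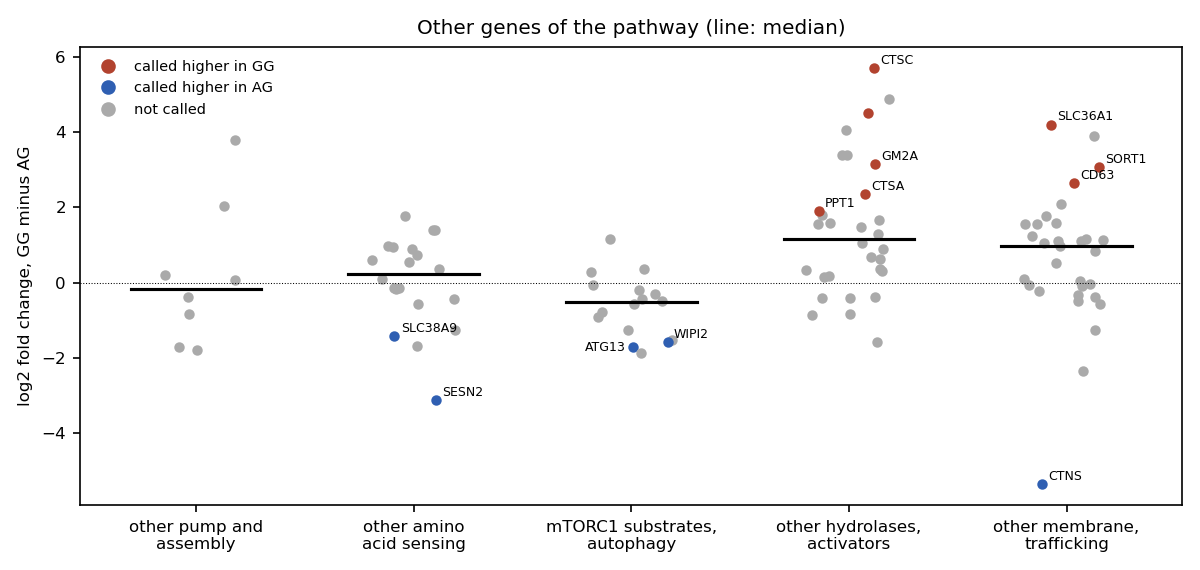
Log2 fold change, GG minus AG, of each tested gene in 5 lists of other pathway genes, with 1 point per gene and a line at each list's median, red for genes called higher in GG, blue for higher in AG and grey for not called; up to 4 called genes per list carry a name. The hydrolase list has its median at 1.17 and its 5 called genes above 0; the autophagy list has its median at -0.52 and its 2 called genes below 0.

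Stage and lineage markers differed between the same libraries. Of 10 tested genome activation genes, 9 were called higher in AG, with a median fold change of -6.90. The 10 genes summed to 1779 to 2379 CPM in GG, against 6328 to 9549 CPM in AG. KHDC1L alone had 2317 and 1717 CPM in GG, against 5389 and 4066 CPM in AG (fold change -1.23 ± 0.26 SE). It made up most of the GG sums, which therefore say little about the other genes of the list. Of 13 tested trophectoderm markers, edgeR called 7 higher in GG, while 4 (TFAP2C, SLC7A2, DAB2 and AQP3) had both GG libraries below both AG libraries, and DESeq2 called 4 of the 13 higher in AG. Their sum was 644 to 1105 CPM in GG, against 407 to 622 CPM in AG, and without KRT18, the marker with the highest mean level, it was 479 to 753 CPM in GG, against 393 to 580 CPM in AG, which overlapped. Of 8 tested primitive endoderm markers, APOE, LAMB1, APOA1 and CTSE were called higher in GG, and GATA4, GATA6, HNF4A and PDGFRA were not called. Their sum was 579 to 644 CPM in GG, against 138 to 202 CPM in AG. APOE alone had 382 and 450.5 CPM in GG, against 0.570 and 3.15 CPM in AG, and without it the sums overlapped, at 193 to 197 CPM in GG, against 138 to 199 CPM in AG. Of 8 tested epiblast markers, which check for an early embryo, DPPA2, TFCP2L1 and ESRRB were called higher in GG and KLF17 and DPPA4 higher in AG. They summed to 1282 to 1645 CPM in GG, against 585 to 608 CPM in AG, of which DPPA2 had 488 and 820.4 CPM in GG, against 101 and 28.4 CPM in AG. Of 7 matched blood markers PTPRC was called, at 3.44 to 6.46 CPM in GG, against 65.9 to 141 CPM in AG. LYZ lay the opposite way without overlap, at 5.37 to 9.82 CPM in GG, against 0.427 to 1.27 CPM in AG. Its AG values rest on 6 and 25 counts, and edgeR did not call it (fold change 3.13 ± 0.77 SE, adjusted p = 0.0533). With DESeq2, 1 blood marker passed in each direction. The 5 tested blood markers summed to 15.2 to 18.4 CPM in GG, against 69.4 to 155 CPM in AG, while CD74 had at most 2 counts in a library. PTPRC alone made up most of the AG sums. Of 6 matched cumulus markers FSHR was at 0 in all libraries, and the 1 tested, TNFAIP6, ranged from 1.61 to 10.5 CPM in GG, against 0.102 to 2.56 CPM in AG. Of 7 matched sperm markers PRM2 and ODF1 were at 0 in all libraries, and the 1 tested, SPATA18, ranged from 0.750 to 0.997 CPM in GG, against 0.570 to 0.813 CPM in AG. The part of stage or lineage in the members' values was not tested.

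The calls rest unevenly on the libraries. Without AG replicate 1 or AG replicate 2, all 10 called members were called in the same direction. Without GG replicate 1 or GG replicate 2, RRAGD alone among the members was called, with adjusted p at most 0.0430, and the count over all genes was 119 and 84; in those fits the spread came from the AG pair, and the lone GG library was assumed to vary like it.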

How the data were processed

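RNA-seq of 4 macaque morula libraries was analysed, 2 labelled GG and 2 labelled AG in their titles. Per the labels, cDNA came from SMARTer Ultra Low Input amplification; molecular identifiers are not mentioned, so reads are not independent molecules, and bounds cover counting error only. The deposited values are estimated counts per Ensembl macaque gene, unscaled, with 30.0% to 32.2% of values in a library not whole. Per the submitters' processing notes, Salmon 0.12.0, STAR 2.6.0c and Trim Galore were used with build rheMac8, their roles and order not stated. Annotation and strand setting: not given in the sources used here. Because such counts can split reads among near-identical copies, paralog values are uncertain; 17 of 41 matched members had whole values throughout.

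Symbols were matched by identifier for 14654 of 21314 genes (68.8%); where several identifiers share a symbol, the one with most reads was used. Counts were rounded and tested with edgeR 4.0.16 in R 4.3.3 (filterByExpr with minimum count 10 and minimum total 15, TMM, quasi-likelihood F test, group alone, Benjamini-Hochberg over all tested genes). SE was computed as the absolute fold change over the root of F. The script was tested on simulated data. Sums without 1 marker were added after the values were seen. DESeq2 1.42.0 was an alternative. Members and lists were chosen with earlier results of these data known. Full values are given for called members, members whose call changed under an alternative, and paralog pairs; lists name up to 4 called genes with the smallest p (RRAGB, named beyond them, was chosen after its values were seen). No list was tested as a set.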

Additional observations from a re-analysis of the deposited data

How the results depend on the processing

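The 10 called members kept their direction in all 12 alternatives. The count called higher in GG was 14 without AG replicate 2 and 1 without either GG library, so leaving out 1 library moved it between 1 and 14; the corresponding range for members called higher in AG was 0 to 4. Members called higher in AG numbered 3 with DESeq2, 2 with unfiltered genes and 2 at a minimum mean of 10 CPM. The share called over all genes tested in a setting moved too. It was 12.9% in the full set, 23.2% with DESeq2, 14.3% with unfiltered genes and 20.5% at that minimum. That share also rose without either AG library and fell without either GG library. The changing counts of members and list genes therefore do not show an instability particular to them. Median fold changes ranged, over the fits without 1 library, from 0.52 to 1.54 for pump genes, 0.10 to 0.38 for sensing genes and 0.27 to 1.04 for hydrolases and other lysosomal proteins. For the other pathway lists, in alternatives added after seeing the data, the calls higher in GG numbered 25 with DESeq2, 19 with unfiltered genes, and 1 to 33 without 1 library. Those higher in AG numbered 10, 10 and 0 to 10 in the same settings. The replicate block gave 14 higher in GG there, and 10 members higher in GG with 1 higher in AG, ATP6V1C1 being added. The correlation of deviations of same-numbered libraries was 0.0986, and the labels tie the numbers to nothing shared. Without 1 library, 5 members changed sign, none of them called in the full set: LAMTOR4 (-0.65 to 0.14), CTSD (-0.077 to 2.04), ATP6V1F (-0.65 to 0.24), ATP6V0D1 (-0.13 to 0.36) and RPTOR (-0.36 to 0.089). The causes were not tested. With 2 libraries a group, a member that missed the threshold is not shown to be alike in both.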
